A study of Homo sapiens with 5 samples.

Results

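The 35 transcription factors described here act in the embryo when mesoderm and endoderm are laid down, and comprise T-box, GATA, forkhead, SOX, basic helix-loop-helix and homeobox factors and the nuclear receptor HNF4A. Their members in the methylation table were the windows that the table assigned to a factor by its gene symbol or that overlapped the factor's gene with 1500 bases on each side. This gave 401 windows of 1000 bases among the 288391 windows of the series, of which 303 carried the symbol of a factor and 98 were found by overlap only. Among the 303, 96 lay outside the gene and its flanks, such as a TBX15 window 181.1 kb downstream of the start site. No window belonged to 2 factors.

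DNA methylation was measured by reduced representation bisulfite sequencing (RRBS), which reads the CpG sites of fragments enriched for CpG-rich sequence, in the human induced pluripotent stem cell (iPSC) line HPS0063, also called 201B7. Cells were exposed for 48 h to 0.1% DMSO as the vehicle control, 1 nM etoposide (a topoisomerase II inhibitor), 1 µM propyl gallate (an antioxidant), 1 µM theophylline (a methylxanthine) or 10 nM 5-aza-2′-deoxycytidine (5-aza-dc, a DNA methyltransferase inhibitor), and every chemical was dissolved in DMSO. There was 1 library per condition from 1 cell line, so no difference between conditions has a replicate check, and the same vehicle control library stood in all 4 comparisons. The value of a window is its β-value, the percentage of cytosine calls read as methylated. The member windows held a median of 891 to 1069 calls per library and a minimum of 11 to 16. Intervals below cover counting error only and take every call as independent. Calls from copies of 1 fragment are not independent molecules, so the intervals can be too narrow. Intervals of means also leave out the spread between windows and between repeated cultures.

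In pluripotent cells the genes of lineage factors are silent but poised: their promoters lie in CpG islands that stay free of DNA methylation and are covered by Polycomb group proteins, and at many such genes the unmethylated stretch runs far beyond the promoter. TBXT (brachyury), EOMES, MIXL1 and GSC come on first, in the primitive streak. GATA, forkhead and SOX factors then specify endoderm and its organs, and T-box, HAND and MESP factors the heart, limb and somite mesoderm. Methylation of a CpG island promoter is a lasting form of silencing, and DNA methyltransferases both place it and copy it at cell division.

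Promoter methylation was also read at marker genes of pluripotent and of other cells. Of 12 pluripotency genes, 10 had a measured promoter window at the table's start site, and 6 of these were under 10% in the vehicle control, among them LIN28A at 0.821% and DNMT3B at 0.762%. POU5F1 stood at 87.9% at the start site the table uses, which lies 10049 bases from that of RefSeq. The window at its RefSeq start site was at 0.943% in the vehicle control, and at 0.686% to 1.61% in the 4 treated libraries. Of the other 3 at 10% or more, DPPA2 was at 76.4% in the vehicle control and L1TD1 at 16.0%. ZFP42 was at 60.9% in the vehicle control, 56.3% with etoposide, 44.3% with propyl gallate, 60.0% with theophylline and 37.2% with 5-aza-dc. NANOG and TDGF1 had no measured promoter window. Of 12 marker genes of other cell types 5 had a promoter window: KDR, CXCR4, COL1A2 and VIM lay under 10% and the liver gene APOA1 was at 89.3%. Markers of both kinds thus had promoters under 10%, as had 73.2% of 12767 protein-coding genes other than the factors. These levels therefore cannot establish the identity of the cells.

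The promoter sequences below show the range of CpG content at these start sites. They run from 250 bases before to 50 bases after a start site in RefSeq on GRCh38.p14 and have every CpG in capitals. For HNF4A and TBX6 that site is the start site of the methylation table, for MIXL1 and TBXT it lies 46 and 45 bases from it, and for EOMES it lies 388 bases inside the gene. HNF4A (chr20:44355449-44355748, plus strand), MIXL1 (chr1:226223414-226223713, plus strand) and TBX6 (chr16:30091875-30092174, minus strand) had the highest promoter β-values in the vehicle control.
HNF4A: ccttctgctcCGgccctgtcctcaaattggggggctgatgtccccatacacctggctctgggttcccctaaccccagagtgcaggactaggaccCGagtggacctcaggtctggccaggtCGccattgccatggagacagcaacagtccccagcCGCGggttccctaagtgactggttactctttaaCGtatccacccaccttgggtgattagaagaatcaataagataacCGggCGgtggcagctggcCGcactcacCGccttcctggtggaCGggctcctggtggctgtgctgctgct
MIXL1: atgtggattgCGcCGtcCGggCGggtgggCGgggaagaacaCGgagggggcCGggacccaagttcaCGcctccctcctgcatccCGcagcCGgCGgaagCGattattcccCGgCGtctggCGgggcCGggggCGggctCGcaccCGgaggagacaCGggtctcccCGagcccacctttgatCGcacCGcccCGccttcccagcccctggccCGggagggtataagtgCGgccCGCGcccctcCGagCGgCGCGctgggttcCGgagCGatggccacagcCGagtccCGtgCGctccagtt
TBX6: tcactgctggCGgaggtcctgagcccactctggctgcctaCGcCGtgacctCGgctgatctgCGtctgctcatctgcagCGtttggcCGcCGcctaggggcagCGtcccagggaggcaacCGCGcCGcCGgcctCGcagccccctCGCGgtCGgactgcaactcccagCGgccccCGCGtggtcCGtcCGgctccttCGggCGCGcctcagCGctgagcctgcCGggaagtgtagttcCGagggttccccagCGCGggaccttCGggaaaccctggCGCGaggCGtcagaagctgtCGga
HNF4A has 11 CpGs in these 300 bases, MIXL1 37 and TBX6 35. EOMES (chr3:27722274-27722573, minus strand) and TBXT (chr6:166168606-166168905, minus strand) were among the 4 lowest, with FOXC2 and SOX7.
EOMES: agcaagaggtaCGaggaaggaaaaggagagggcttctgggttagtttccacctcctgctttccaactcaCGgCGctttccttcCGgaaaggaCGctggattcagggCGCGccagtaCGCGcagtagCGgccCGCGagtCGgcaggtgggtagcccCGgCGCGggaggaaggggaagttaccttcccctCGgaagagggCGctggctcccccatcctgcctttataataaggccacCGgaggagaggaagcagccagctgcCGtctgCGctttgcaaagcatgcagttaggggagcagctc
TBXT: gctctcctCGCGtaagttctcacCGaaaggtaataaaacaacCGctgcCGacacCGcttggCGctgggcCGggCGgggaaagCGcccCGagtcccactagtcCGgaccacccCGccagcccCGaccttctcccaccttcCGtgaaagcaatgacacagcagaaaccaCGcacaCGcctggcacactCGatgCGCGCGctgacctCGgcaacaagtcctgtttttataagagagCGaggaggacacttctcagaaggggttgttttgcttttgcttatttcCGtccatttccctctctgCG
EOMES has 21 CpGs and TBXT 25. The letters CCGG, the site of the enzyme MspI that is commonly used for RRBS, read the same on both strands and each contain a CpG. They occur 2 times in the HNF4A promoter, 8 times in that of MIXL1, 3 times in those of TBX6 and EOMES and 2 times in that of TBXT. Among 30 RefSeq promoters of 21 matched factors all 30 held CCGG, against 63.1% of 35116 promoters. The factors' promoters had a median of 21 CpGs (range 5 to 40), against 14 over all promoters.

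Nearly all promoters of the factors were unmethylated in the vehicle control. A promoter window here is a window that overlaps the 250 bases before to 50 bases after the start site given in the table, and a promoter with several windows has their mean. Of the 35 factors 32 had such a window and 30 of these were under 10%, while 73.2% of 12767 other protein-coding genes were. The median promoter β-value over the 32 factors was 1.40%, close to the 1.54% of the other genes. The 30 unmethylated promoters ranged from 0.203% at FOXC2 to 7.04% at TBX6, and only CDX1, the posterior homeobox factor, and SOX18 among the others were above 5%, at 6.35% and 5.32%. A factor had from 3 windows (SOX18) to 33 (GATA3) in all. GSC, GATA4 and MESP2 had no window at the table's start site, and 15 of the 28 windows of GATA4 were under 10%. For GSC, the homeobox factor of the organizer, the windows 0.6 kb downstream and 1.4 kb upstream of the start site were at 1.75% and 2.38%.

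TBXT, EOMES and GATA6, 3 of the earliest factors, illustrate the level. At TBXT, which drives mesoderm formation, the promoter window chr6:166168001-166169000 was at 0.692% (15 of 2167 calls) in the vehicle control, 0.809% with etoposide, 0.689% with propyl gallate, 0.732% with theophylline and 0.851% with 5-aza-dc. At EOMES, which is needed for definitive endoderm, chr3:27722001-27723000 was at 0.503% (13 of 2584 calls), 1.42%, 1.03%, 1.97% and 1.28% in the same order. At GATA6, a factor of primitive and definitive endoderm whose promoter window the table assigns to the antisense gene GATA6-AS1, chr18:22169001-22170000 was at 1.26%, 0.835%, 1.13%, 0.875% and 0.824%. The 5 libraries thus spanned 0.689% to 0.851% at TBXT and 0.503% to 1.97% at EOMES. The theophylline library was 1.46 percentage points above the vehicle control at EOMES (Fisher's exact test on the calls of the 2 libraries, adjusted p = 0.000278 over all windows), and the other differences at these 3 windows were under 1 point, with adjusted p from 0.0255 to 1.0 by the same exact test.

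The number of factors with a promoter under 10% was 30 in the vehicle control and with etoposide, propyl gallate and theophylline, and 31 with 5-aza-dc. Within the 30 factors the mean promoter β-value was 1.89% in the vehicle control, 1.74% with etoposide, 1.76% with propyl gallate, 2.09% with theophylline and 1.64% with 5-aza-dc. Against the vehicle control, the promoter was higher with theophylline in 24 of 32 factors and lower with 5-aza-dc in 19 of 32, with differences that were mostly below 1 percentage point. With etoposide and with propyl gallate 15 factors were higher and 17 lower. Of all windows of the series, at any level and place, 59.9% were higher with theophylline and 58.4% lower with 5-aza-dc. With etoposide 54.9% of all windows were higher, and with propyl gallate 55.3%. The same counts over the promoters of other genes were not made.

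The first exception was HNF4A, the nuclear receptor of liver, gut and pancreatic development. Its promoter window chr20:44355001-44356000, a CpG island window that the table assigns to R3HDML-AS1, was at 95.4% (95% Wilson interval 93.9 to 96.5, 1054 calls) in the vehicle control. It was at 89.4% with etoposide, 92.5% with propyl gallate, 95.1% with theophylline and 92.7% with 5-aza-dc. Of the 20 windows of HNF4A 19 were at 70% or more in the vehicle control. The remaining window, chr20:44388001-44389000, 32.8 kb downstream of the start site and outside any CpG island, was at 8.31% in the vehicle control (interval 6.36 to 10.8), 4.71% with etoposide, 6.69% with propyl gallate, 4.82% with theophylline and 2.90% with 5-aza-dc, where the interval reached from 2.03 to 4.04. HNF4A was thus the only factor among the 32 with a promoter at 70% or more at the table's start site. It held 1 window under 10% inside the gene. RefSeq has a further HNF4A promoter inside the gene, chr20:44400989-44401288, which was not examined on its own.

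The second exception was MIXL1, a homeobox factor of the primitive streak. Its promoter window chr1:226223001-226224000 was at 17.0% in the vehicle control (165 of 968 calls, interval 14.8 to 19.5), 17.6% with etoposide (149 of 848), 17.4% with propyl gallate (135 of 777), 17.8% with theophylline (108 of 609) and 8.15% with 5-aza-dc (79 of 973, interval 6.56 to 10.0). The 4 libraries without 5-aza-dc lay within 0.735 percentage points of each other, and the difference between the 5-aza-dc library and the vehicle control was -8.90 points (Fisher's exact test, adjusted p = 1.91e-07), short of the 10 points set for a call below. The next window of MIXL1, 0.9 kb downstream, was between 8.27% and 9.93% in all 5 libraries. MIXL1 had the largest fall of any promoter of the 32 factors with 5-aza-dc.

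A further 2 promoters sat higher than the rest. TBX6, which directs cells to paraxial mesoderm, had 2 promoter windows. The downstream window chr16:30091001-30092000 was at 13.3% in the vehicle control, 18.6% with etoposide, 14.6% with propyl gallate, 17.3% with theophylline and 10.3% with 5-aza-dc, and the upstream window was between 0.650% and 1.32%. At MESP2, a basic helix-loop-helix factor of somite segmentation, the table's gene begins 15741 bases away from the RefSeq start site. The CpG island window at the RefSeq start site, chr15:89776001-89777000, was at 16.2% in the vehicle control, 15.0% with etoposide, 15.6% with propyl gallate, 15.1% with theophylline and 16.2% with 5-aza-dc, on 6553 calls in the vehicle control. MESP1, its neighbour that marks early heart mesoderm, was at 1.75%, 0.835%, 0.337%, 2.12% and 0.317% in the same order.

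The unmethylated stretch around the start site was long at most factors. A run here is the promoter window with all neighbouring windows under 10%, stepping over at most 2 windows that were not measured. Over the 30 factors with an unmethylated promoter the median run was 6500 bases (range 1000 to 18000), against 2000 bases over 9343 other protein-coding genes with an unmethylated promoter. Runs of 10000 bases or more surrounded 9 of the 30 factors (30%), against 0.631% of the other genes. In 27 of 30 factors the run exceeded the median of the other genes. With no unmeasured window allowed inside a run, the median was 3500 bases for the factors and 2000 for the other genes. With gaps of up to 5 unmeasured windows it was 8000 and 2000 bases, so the length for the factors depended on the gap allowed. RRBS measures CpG-rich fragments, and 214 of the 401 windows (53.4%) lay in CpG islands, against 17.3% of all windows. The part of CpG island size in the run lengths was not tested.

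The longest runs belonged to FOXF1, a factor of lateral plate and gut mesoderm, and GATA3, which acts in trophoblast, ear and T cells, at 18 kb each in the vehicle control. GATA2, a factor of blood stem cells, followed at 15 kb, HAND1, of heart and extraembryonic mesoderm, at 13 kb, and FOXC1, of paraxial and eye mesoderm, at 12 kb. Across the 5 libraries, in the order in which the exposures are listed above, the run of FOXF1 was 18, 8, 7, 18 and 8 kb, that of GATA3 18, 14, 14, 14 and 18 kb, and that of GATA2 15, 11, 11, 15 and 15 kb. HAND1 kept 13 kb and FOXC1 12 kb in all 5 libraries, and 17 of the 30 runs had 1 length throughout. Of the others, the run of FOXA1 was 6 kb in 4 libraries and 18 kb with 5-aza-dc, that of FOXA2 11, 10, 5, 11 and 6 kb, that of TBX1 8, 8, 13, 13 and 13 kb, and that of MESP1 5, 2, 2, 2 and 5 kb. In the vehicle control FOXA2 followed at 11 kb and TBX2, TBX5, of heart and forelimb, and TBX15 at 10 kb each. TBX20, of heart, was at 9 kb, TBX1, GATA6 and FOXC2 at 8 kb, SOX17 and TBX4, of hindlimb, at 7 kb, HAND2, FOXA1 and CDX2, of trophoblast and gut, at 6 kb, and TWIST1, TBX3, GATA5, SOX7, TBXT, MESP1 and TBX18 at 5 kb. EOMES had 4 kb, FOXA3 3 kb and TBX6 2 kb. A run ends at a window of 10% or more, so steps between libraries can rest on single windows near the threshold. It also ends where more than 2 windows in a row were not measured, so a length can be a lower bound. At GATA2 the window chr3:128496001-128497000, 3.3 kb upstream of the start site, was at 8.41%, 11.9%, 11.5%, 8.15% and 8.26% and set the step. The number of factors with runs of 10000 bases or more was 9 in the vehicle control, 8 with etoposide, 7 with propyl gallate, 10 with theophylline and 9 with 5-aza-dc. FOXF1 and FOXC2 are neighbours on chromosome 16, MESP1 and MESP2 on chromosome 15, TBX2 and TBX4 on chromosome 17 and TBX3 and TBX5 on chromosome 12, so factors are not independent of each other.

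The profile by distance gave a similar shape without a threshold. It covers all factors and other genes with a promoter window, methylated promoters included, whereas the runs covered only those with a promoter under 10%. In the vehicle control, windows centred within 1 kb of the start site had a mean of 4.36% at the factors (59 windows) and 18.8% at the other genes. At 4 kb upstream the means were 24.3% (31 windows) and 78.5%, and at 10 kb downstream 18.4% (25 windows) and 78.1%. At 20 kb upstream they were 83.3% (15 windows) and 76.8%. At 14 kb downstream the factors reached 62.9% (25 windows), against 78.6%.

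Over all member windows the levels fell into 2 groups. By the mean over the 5 libraries 232 of 401 windows (57.9%) were under 10% and 127 (31.7%) at 70% or more, with 19 between 10% and 30% and 23 between 30% and 70%. Of all windows of the series, 9.61% were under 10% and 84.3% at 70% or more. The forkhead windows had the lowest mean of the larger families, at 17.1% in the vehicle control over 50 windows, and basic helix-loop-helix windows were at 18.0% over 39. GATA windows were at 34.0% (102 windows), T-box windows at 35% (138), homeobox windows at 34.1% (32), SOX windows at 35.3% (20) and HNF4A at 85.5% (20).

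Factors of 1 family differed widely. All 7 windows of FOXA2, a pioneer factor of endoderm and floor plate, were under 10%, as were all 5 of FOXC2, a factor of vascular and paraxial mesoderm, while FOXA3, a liver factor, had 4 of 9. At GATA5, a heart and gut endoderm factor, the 2 promoter windows were at 1.81% and 2.01% but 14 of 19 windows were at 70% or more. These include the CpG island window chr20:62466001-62467000, 9.5 kb downstream of the start site, which was at 92.4% in the vehicle control, 92% with etoposide, 91.6% with propyl gallate, 91.4% with theophylline and 89.9% with 5-aza-dc on 3141 calls in the vehicle control. GATA2 had none at 70% or more among 14, and its relative GATA6 none among 8. Of the T-box factors, TBX3, a repressor in limb and heart, had 16 of 17 windows under 10%, TBX2, its close relative, 8 of 10, and TBX1, the pharyngeal factor, 10 of 27.

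Against the vehicle control, the mean of the member windows moved by less than 1 percentage point after every chemical. It was 33.3% in the vehicle control, 33.6% with etoposide, 33.5% with propyl gallate, 34.0% with theophylline and 32.4% with 5-aza-dc. The difference was 0.242 points with etoposide (95% counting interval 0.0121 to 0.472), 0.191 with propyl gallate (-0.0359 to 0.418), 0.709 with theophylline (0.491 to 0.927) and -0.893 with 5-aza-dc (-1.14 to -0.646). The size of the etoposide difference depended on the weighting: it was 0.0970 over windows assigned by symbol only, 0.110 with calls pooled and 0.112 as a median of window differences. Over all windows of the series the differences were 0.513, 0.566, 0.975 and -1.03 points. Between any 2 libraries the largest difference in mean was 1.60 points, from theophylline to 5-aza-dc, and pairs that did not hold 5-aza-dc differed by at most 0.709. With 1 library each, these differences cannot be told apart from those between repeated cultures or library preparations.

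**Figure D1:**
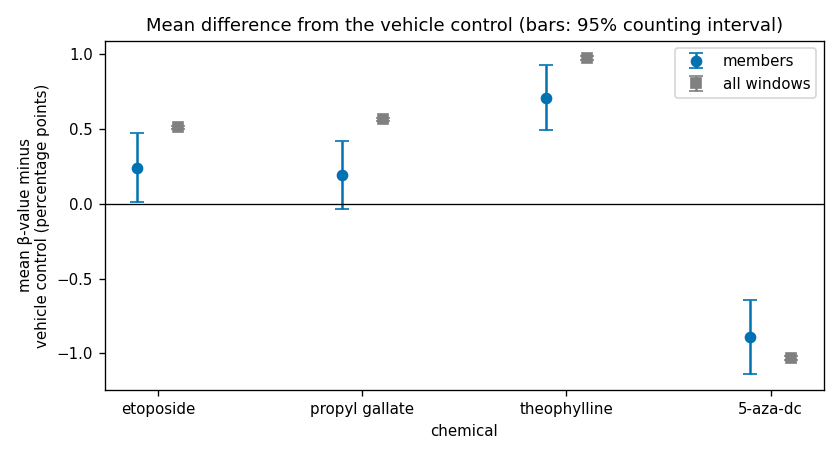
Difference in mean β-value from the vehicle control (y axis, percentage points) for each chemical (x axis), over the 401 member windows (circles) and all 288391 windows (squares), with 95% counting intervals as bars. The member mean is above 0 with theophylline and below 0 with 5-aza-dc, and the interval with propyl gallate includes 0.

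As a mean log2 β-value ratio to the vehicle control, which gives weight to proportional changes at low levels, the member windows were at 0.0021 with etoposide (395 windows above 0 in both libraries, 95% counting interval -0.036 to 0.040), -0.0053 with propyl gallate (-0.043 to 0.033), 0.042 with theophylline (0.0024 to 0.081) and -0.14 with 5-aza-dc (393 windows, -0.18 to -0.10). Over all windows the ratio with 5-aza-dc was -0.037. In the windows under 10% it was -0.22 for the members and -0.16 for all windows, and this level made up 57.9% of the members and 9.61% of all windows.

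The 5-aza-dc library had the lowest β-value of the 5 in 143 of the 401 member windows (35.7%), beside 35.1% of all windows. The other libraries were lowest in 51 to 75 member windows each. Among the 232 windows under 10%, 5-aza-dc was lowest in 72 (31.0%, against 28.0% of all windows of that level), among the 19 between 10% and 30% in 7 (36.8%, against 45.6%), among the 23 between 30% and 70% in 11 (47.8%, against 39.9%) and among the 127 at 70% or more in 53 (41.7%, against 35.4%). The mean difference with 5-aza-dc was -0.542 percentage points in member windows under 10% (-0.357 in all windows of that level), -2.07 between 10% and 30% (-2.62), -1.12 between 30% and 70% (-3.00) and -1.32 at 70% or more (-0.974). With theophylline the mean differences at the same 4 levels were 0.0391 (0.0634 in all windows), -1.10 (0.448), 4.89 (0.932) and 1.45 points (1.1). Without the GATA2 window chr3:128480001-128481000, which had 29 calls with theophylline, the third of these was 3.89 points. The second, over 19 windows, includes the TBX15 window chr1:118852001-118853000, with a theophylline difference of -18.9 points. The median theophylline difference at that level was 0.654 points, of the opposite sign to the mean. The 33 windows at the edges of the unmethylated runs had a mean of 56% in the vehicle control, 56.1% with etoposide, 56.6% with propyl gallate, 57.9% with theophylline and 53.9% with 5-aza-dc. Theophylline gave the highest value of the 5 libraries in 108 member windows (26.9%, against 26.8% of all windows).

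By factor, the mean over a factor's windows was lower with 5-aza-dc in 27 of 35 and higher in 8. The 95% counting interval lay below 0 in 13 and above 0 in 0. Among 15876 other protein-coding genes with at least 3 windows, 72.5% were lower with 5-aza-dc and 27.5% higher. Their interval lay below 0 in 37.5% and above 0 in 6.63%. In the counts that follow, percentages in brackets are shares of these other genes. With theophylline 24 of 35 factors were higher (73.9%), with the interval above 0 in 12 (36.5%) and below 0 in 1 (5.4%). With etoposide 17 were higher (63.0%) and 18 lower (37.0%), with the interval above 0 in 7 (25.5%) and below 0 in 3 (9.29%). With propyl gallate 22 were higher (63.8%) and 13 lower (36.2%), with the interval above 0 in 4 (26.6%) and below 0 in 1 (9.27%). The largest fall with 5-aza-dc was that of SOX17, the endoderm and endothelial SOX factor, whose mean over 7 windows was 28.2% in the vehicle control, 28.0% with etoposide, 28.0% with propyl gallate, 27.6% with theophylline and 25% with 5-aza-dc (difference -3.24 points, counting SE 1.30). It rested on 1 window 10.4 kb upstream with 21 calls with 5-aza-dc, at 97.9% in the vehicle control and 80.0% with 5-aza-dc, while its promoter window and the 4 other low windows stayed under 3%.

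FOXA1, a pioneer factor of endoderm-derived epithelia, was next at 20.6%, 21%, 21.2%, 19.7% and 18.4% in that order (5-aza-dc difference -2.21, SE 0.380, 13 windows). The FOXA1 mean includes an intergenic window 28.4 kb upstream of the start site, where the 5-aza-dc difference was -14.3 points. TBX6 was at 63.0%, 66.2%, 62.8%, 66.3% and 60.9% (-2.10, SE 1.1, 6 windows). HAND1 was at 7.12%, 6.35%, 6.48%, 7.11% and 5.11% (-2.01, SE 0.932, 9 windows) and GATA5 at 73.2%, 71.9%, 71.6%, 73.3% and 71.2% (-2.01, SE 0.568, 19 windows). In FOXA1, TBX6, HAND1 and GATA5 the 5-aza-dc library was the lowest of the 5. At HAND1 the 2 windows that moved most had few calls, from 44.6% of 92 calls to 33.3% of 99 at 6.7 kb downstream (adjusted p = 0.302, Fisher's exact test) and from 6.25% of 32 calls to 0% of 23 at 5.7 kb downstream. The largest rises were smaller against their error. SOX18, a vascular SOX factor, was at 45.2%, 43.0%, 42.3%, 44.1% and 51.8% (6.67, SE 4.43, 3 windows), where a window in the 3′ UTR with 20 to 68 calls moved most. TBXT was at 37.1%, 39.2%, 37.9%, 39.0% and 38.5% (1.41, SE 1.39) and TBX18, an epicardial factor, at 18.7%, 18.4%, 19.7%, 19.7% and 19.7% (0.919, SE 0.739).

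Single windows were compared by Fisher's exact test of the calls of 2 libraries, two-sided, with Benjamini-Hochberg adjustment over all 288391 windows. Such a test compares these libraries and not the conditions. A window was called when the adjusted p was under 0.01 and the β-values differed by at least 10 percentage points. With etoposide 1 member window was called higher (1.36% of all windows were) and 2 lower (0.956%). With propyl gallate 3 were higher (1.34%) and 1 lower (0.88%), with theophylline 3 higher (1.59%) and 2 lower (0.681%), and with 5-aza-dc 1 higher (0.876%) and 6 lower (2.76%). The share of the 401 members was below that of all windows in each of these counts. A window under 10% in the vehicle control cannot be called lower, but it can be called higher. Windows with a mean under 10% over the 5 libraries made up 57.9% of the members. The part of the starting level in these shares was not tested. In all there were 19 calls on 12 windows of 8 factors. No member window reached a difference of 25 points with an adjusted p under 0.01. None of the 19 calls was left when the calls were divided by 10 before the test, to allow for several calls from 1 fragment.

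Of the 12 called windows the vehicle control was the highest of the 5 libraries at 3 and the lowest at 4. HAND2, of heart and limb mesoderm, had a CpG island window centred 1.3 kb upstream of its start site, chr4:173531001-173532000, at 14.8% in the vehicle control (58 of 393 calls), 3.42% with etoposide (10 of 298), 5.32% with propyl gallate (22 of 415), 2.47% with theophylline (10 of 420) and 1.89% with 5-aza-dc (9 of 481). It was called lower with etoposide, theophylline and 5-aza-dc (Fisher's exact test, adjusted p = 1.46e-05, 1.65e-08 and 5.2e-11), and with propyl gallate the difference was -9.44 points (adjusted p = 0.000191 by the same exact test). The HAND2 window at the start site itself was between 1.67% and 2.42% in all 5 libraries. TBX15, a factor of skeletal and limb mesoderm, had an intergenic window 137.1 kb downstream, chr1:118852001-118853000, at 32.4% in the vehicle control, 17.2% with etoposide, 12.1% with propyl gallate, 13.5% with theophylline and 22.1% with 5-aza-dc, called lower in all 4 comparisons. Since 1 vehicle library serves all comparisons, a value particular to that library moves all 4 in the same direction.

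At GATA4, the heart and endoderm factor, the intronic window chr8:11742001-11743000 was the lowest in the vehicle control, at 77.7% against 97.6% with etoposide, 90.8% with propyl gallate, 99.0% with theophylline and 88.9% with 5-aza-dc, and it was called higher with etoposide, theophylline and 5-aza-dc. With propyl gallate the adjusted p was 0.0226 by Fisher's exact test. It was the 1 member window called higher with 5-aza-dc. A 3′ UTR window of the same gene, chr8:11759001-11760000, was at 66.6%, 74.5%, 62.1%, 63.6% and 52.8% and was called lower with 5-aza-dc.

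The other falls called with 5-aza-dc lay in methylated windows. GATA5 had chr20:62465001-62466000, at an intron and exon boundary in a CpG shore, at 91.9% in the vehicle control, 89.5% with etoposide, 88.2% with propyl gallate, 95.5% with theophylline and 79.6% with 5-aza-dc (Fisher's exact test, adjusted p = 1.13e-05). FOXA1 had chr14:37624001-37625000, a CpG shore 28.4 kb upstream of the start site, at 91.5%, 98.6%, 92.7%, 87.5% and 77.2% (adjusted p = 2.74e-08 with 5-aza-dc by the same exact test). HNF4A had chr20:44393001-44394000 at 94.4%, 91.8%, 83.8%, 92.8% and 76.1% on 76 calls with 5-aza-dc (adjusted p = 0.00162 by the same exact test). In the GATA5, FOXA1 and HNF4A windows the 5-aza-dc library was the lowest by more than 7 points.

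Apart from the GATA4 window, each rise was called with 1 chemical only. With propyl gallate, FOXA1 chr14:37592001-37593000, a CpG island window 3.6 kb into the gene, was at 24.0%, against 11.9% in the vehicle control, 11.5% with etoposide, 11.2% with theophylline and 7.95% with 5-aza-dc (Fisher's exact test, adjusted p = 1.55e-05). GATA3 had an intronic window, chr10:8065001-8066000, at 50.5% with propyl gallate and 38.0% in the vehicle control, 41.7% with etoposide, 37.3% with theophylline and 33.4% with 5-aza-dc. A 3′ UTR window of GATA3, chr10:8074001-8075000, was at 77.2% in the vehicle control and 90.1%, 93.0%, 87.2% and 85.3% in the 4 treated libraries, and was called with propyl gallate only. With theophylline, MESP1 chr15:89748001-89749000 was at 14.8%, against 2.58% in the vehicle control, 10.2% with etoposide, 13% with propyl gallate and 5.79% with 5-aza-dc, on 100 to 155 calls. HNF4A chr20:44376001-44377000, which the table assigns to HNF4A-AS1, was at 94.5% with theophylline and 83.4% in the vehicle control, 87.1% with etoposide, 89.1% with propyl gallate and 91.3% with 5-aza-dc.

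Without the limit of 10 points more windows passed. In all, 24 of 401 (5.99%) with etoposide, 35 (8.73%) with propyl gallate, 31 (7.73%) with theophylline and 44 (11%) with 5-aza-dc had an adjusted p under 0.01, against 10.1%, 10.3%, 11% and 14% of all windows. An example, chosen after its values were seen, was GATA2 chr3:128481001-128482000, 11.7 kb into the gene. It was at 19.6% in the vehicle control, 20.3% with etoposide, 25% with propyl gallate, 28.5% with theophylline and 16.7% with 5-aza-dc on 2833 to 3574 calls, with an adjusted p of 2.55e-14 for theophylline by Fisher's exact test.

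A separate list described 23 genes around the induction of mesoderm and endoderm by the NODAL, WNT, BMP and FGF pathways. It held ligands, antagonists, receptors and their partners, and also transcription factors such as MSGN1. Of the 23 genes 16 had a promoter window, 13 were under 10% in the vehicle control and 1 was at 70% or more. The latter was LEFTY2, a NODAL antagonist, at 87.3% in the vehicle control, 95.6% with etoposide, 100% with propyl gallate and theophylline and 91.4% with 5-aza-dc. LEFTY1, its neighbour and relative, was at 45.0%, 47.6%, 39.6%, 39.8% and 30.3%, and MSGN1, a factor of presomitic mesoderm, at 28.5%, 34.5%, 38.1%, 31.8% and 44.0%. The promoters of the ligands WNT3A and BMP2 were at 3.86% and 2.13% and those of the receptors ACVR1B and BMPR1A at 0.666% and 1.04% in the vehicle control. Over the 211 windows of the list the mean was 56.5% in the vehicle control, 57.0% with etoposide, 57.6% with propyl gallate, 57.2% with theophylline and 55.9% with 5-aza-dc. Of these windows 4 were called higher (1.9%, against 1.36% of all windows) and 2 lower (0.948%, against 0.956%) with etoposide, 2 higher (0.948%, against 1.34%) and 1 lower (0.474%, against 0.88%) with propyl gallate, 3 higher (1.42%, against 1.59%) and 2 lower (0.948%, against 0.681%) with theophylline, and 1 higher (0.474%, against 0.876%) and 3 lower (1.42%, against 2.76%) with 5-aza-dc.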

How the data were processed

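RRBS was run on 5 libraries, 1 per condition. Reads were trimmed by the authors (Trim Galore 0.5.0) and aligned to hg38 (Bismark 0.20.0). In methylKit 1.10.0 the authors tiled CpG calls into windows of 1000 bases, dropped windows of low or extreme coverage, scaled coverage between libraries and kept the windows common to all. SAMtools 1.9 and FastQC 0.11.7 are also named in the submitters' processing notes. The vehicle control columns are whole-number counts of calls as deposited. The coverage and calls of the other 4 libraries are a score, since the authors rescaled them and rounded the products. β-values are the fraction of methylated calls per window, computed by the authors, and the deposited tables of the single libraries hold equal β-values in all 288391 windows. Unmethylated calls were taken as coverage less methylated calls, and their own columns were not read.

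The multipliers were read off the gaps between low coverage values (theophylline 1.1546, propyl gallate 1.0874, etoposide 1.1789, 5-aza-dc 1.2108), and calls were divided by them to return to the unscaled numbers. Scaling them again returned the deposited coverage in 100.0% of windows. The plan had been to use deposited counts in Fisher's test, and the unscaled calls took their place. Calls per library in these windows ranged from 188844850 to 228919184. Fisher's test was checked on simulated data.

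β-values were averaged over windows, and counting errors came from the binomial variance of each window. Gene positions lay within 1000 bases of GRCh38.p14 for 97.3% of 32947 genes matched by symbol, and promoter sequences are RefSeq's on that build. The members and the gene lists were chosen with earlier results of these data known. Genes were named by rule: promoters at 10% or more, called windows, the 5 largest falls and 3 largest rises of a factor's mean with 5-aza-dc, the 5 longest runs, and TBXT, EOMES and GATA6. Further factors and windows, such as those named for their share of low windows or for runs that differed between libraries, were chosen after their values were seen. Python 3.11.15, numpy 2.4.6, pandas 2.3.3, numba 0.67.0 and matplotlib 3.10.9 were used. Alternatives covered the choice of windows, weights, coverage minimums, thresholds and start sites.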

Additional observations from a re-analysis of the deposited data

How the results depend on the processing

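Of 98 recomputed values 60 stayed within the counting interval of the main value, or within 1.5 times it for a count, and 38 moved, with no change of sign among differences whose interval left out 0. When windows averaging under 10% were left out the mean difference was 0.723 points with etoposide, 0.507 with propyl gallate, 1.63 with theophylline and -1.37 with 5-aza-dc. With all calls pooled the theophylline difference was 0.479, and as a median of window differences it was 0.204. The 5-aza-dc difference was -0.578 as a mean of gene means and -0.380 as a median. The log2 ratio with 5-aza-dc was -0.047 as a median and -0.044 without windows averaging under 10%. With a minimum of 25 points 0 member windows were called in each direction for every chemical, and with calls divided by 10 also 0. Without a minimum difference 18 windows were higher and 6 lower with etoposide, 23 and 12 with propyl gallate, 23 and 8 with theophylline and 12 and 32 with 5-aza-dc. On the calls as deposited 2 windows were called higher with etoposide. The median run was 3500 bases with no unmeasured window allowed and 8000 with gaps of up to 5 unmeasured windows. The 5-aza-dc library was lowest by at least 1 point in 72 member windows (18.0%, against 25.1% of all windows) and by at least 5 points in 17 (4.24%, against 7.01%). With all windows within 1500 bases of the start site taken as the promoter, 27 of 33 promoters were under 10%. With RefSeq start sites, an alternative chosen after seeing the data, 30 of 33 promoters were under 10%. The causes of these shifts were not tested. With 1 library per condition no paired analysis was possible because no group holds a second replicate, and depth limits windows with few calls, down to 11.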
